A study of Homo sapiens with 9 samples.

Results

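LKB1, the kinase encoded by STK11, and the AMP-activated protein kinase (AMPK) form an energy-sensing pathway, and 10 of its genes were followed here in a pooled CRISPR knockout screen of RH4 cells. The genes were the upstream kinases STK11, CAMKK1 and CAMKK2, the catalytic subunits PRKAA1 and PRKAA2, the scaffold subunits PRKAB1 and PRKAB2, and the nucleotide-binding subunits PRKAG1, PRKAG2 and PRKAG3. They were chosen by name as the LKB1 and AMPK genes of the library, which made 10 of 763 targeted genes and 40 of 3152 single guide RNAs (sgRNAs), 4 per gene. All 40 sgRNAs had enough reads to be tested.

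AMPK is a complex of 3 kinds of subunit (α, β and γ) that is switched on when AMP and ADP rise relative to ATP. The γ subunit senses the nucleotides, the β subunit holds the complex together and can bind glycogen, and the α subunit carries the kinase, which is active once its activation loop is phosphorylated by LKB1 or, when calcium rises, by CAMKK2. Active AMPK restrains lipid synthesis, holds back protein synthesis through mTORC1, and starts autophagy through ULK1. LKB1 is also known as a tumour suppressor. Antifolates such as methotrexate can raise the purine intermediate ZMP, an AMP mimic that binds the γ subunit, in other cell types.

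RH4 is an established human rhabdomyosarcoma line with the PAX3::FOXO1 fusion. Cells of all 3 groups had been infected with a lentiviral kinome library of sgRNAs (how many sgRNAs a cell received is not given in the sources used here), and all had been under puromycin at 0.25 µg/ml for 72 h, begun 48 h after infection. The pralatrexate group (3 libraries) then had a recovery of 72 h and 10 days with 1.5 nM pralatrexate, an antifolate that blocks dihydrofolate reductase. The vehicle group (3 libraries) had the same recovery and 10 days with vehicle, and the baseline group (3 libraries) was harvested at the end of selection. The study's text gives a longer selection than the labels do, so the time from baseline to the end of the screen is uncertain. The labels number the libraries as repeats, and the study calls them both cultures and technical replicates, and a p-value here therefore covers the spread between libraries, part or all of which may be technical.

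What was sequenced is the sgRNA cassette in genomic DNA, and the reads of an sgRNA stand for the cells that carry it. Slower growth and death of the carriers cannot be told apart, and neither the knockout of each gene nor the identity of the line was measured by these reads. Libraries held 2468136 to 4602712 reads, and the sgRNAs of the 10 genes took 1.27% to 1.34% of the reads in each library. Beyond the noise of counting reads, libraries of a group varied by 13.2% per sgRNA (coefficient of variation, 1 edgeR estimate for all sgRNAs). The 99 non-targeting sgRNAs tested, which have no target in the genome, had a median log2 fold change of 0.00 in pralatrexate against vehicle, 0.34 in pralatrexate against baseline and 0.31 in vehicle against baseline. Both comparisons with baseline therefore carry a shift of the non-targeting sgRNAs relative to the targeting ones, whose median was 0.01 in each. A log2 fold change near 0 below means a change like that of the average targeting sgRNA.

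The log2 fold change of a gene averages those of its 4 sgRNAs, and its SD is over the same sgRNAs. Genes were called by ranking the edgeR p-values of all sgRNAs and asking whether a gene's sgRNAs gathered at one end (robust rank aggregation), with the false discovery rate (FDR) over 763 genes held to 0.05. A gene's level in a library is the mean log2 CPM (counts scaled to library size) of its 4 sgRNAs, and 95% intervals come from limma on these levels. The 3 comparisons share libraries by pairs, so they are not independent of each other.

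CAMKK2, the calcium-dependent activator of AMPK, was the only member gene called, in both comparisons with baseline. Its level was 8.01, 8.16 and 8.04 log2 CPM in the pralatrexate libraries, against 8.63, 8.68 and 8.61 in the baseline libraries. In the vehicle libraries it was 8.48, 8.15 and 8.22. All 6 day 10 libraries lay below all 3 baseline libraries, while the pralatrexate and vehicle libraries overlapped because vehicle 2 lay just below pralatrexate 2. The order of the mean levels was pralatrexate (8.07 ± 0.08), vehicle (8.28 ± 0.17) and baseline (8.64 ± 0.04), with SD over n = 3 each. The ranges of mean ± SD overlapped for pralatrexate and vehicle.

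CAMKK2 fell by 0.57 ± 0.15 on the log2 scale in pralatrexate against baseline (SD over 4 sgRNAs, edgeR with rank aggregation, FDR = 0.0146), to 0.675 of its baseline share. The 95% interval of this difference ran from -0.74 to -0.39. In vehicle against baseline it fell by 0.35 ± 0.17 (edgeR with rank aggregation, FDR = 0.0444), to 0.784 of baseline, with an interval from -0.53 to -0.18. Relative to the median non-targeting sgRNA these changes were -0.90 and -0.66. CAMKK2 was 1 of 10 members called as depleted in each of these comparisons, where 7.34% and 7.47% of all genes were called as depleted. No member was called as enriched in either, beside 0.262% and 0.524% of all genes. It ranked 76th and 105th from the lowest log2 fold change among the 763 genes, so many genes of the library moved further.

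The 4 CAMKK2 sgRNAs moved the same way. sgRNA 1 had 242, 227 and 209 CPM in the pralatrexate libraries, 280, 244 and 242 CPM in the vehicle libraries, and 376, 362 and 421 CPM in the baseline libraries. sgRNA 3, the most abundant, had 415, 500 and 409 CPM with pralatrexate, 614, 451 and 536 CPM with vehicle, and 701, 614 and 582 CPM at baseline. For sgRNA 1 all 6 day 10 libraries lay below baseline, whereas for sgRNA 3 only the pralatrexate libraries did.

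sgRNA 2 had 229, 245 and 253 CPM with pralatrexate, 335, 252 and 301 CPM with vehicle, and 345, 380 and 333 CPM at baseline. sgRNA 4 had 192, 240 and 224 CPM with pralatrexate, 282, 233 and 202 CPM with vehicle, and 270, 331 and 283 CPM at baseline. Both had their lowest means with pralatrexate and their highest at baseline, and for both the vehicle libraries reached into the baseline range.

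In pralatrexate against baseline the log2 fold changes of CAMKK2 sgRNAs 1 to 4 were -0.77, -0.54, -0.52 and -0.43, and each passed the sgRNA test (edgeR FDR 5.76e-05, 0.00411, 0.00166 and 0.0497). In vehicle against baseline they were -0.60, -0.25, -0.25 and -0.31, and only sgRNA 1 passed (edgeR FDR = 0.00132). All 4 lay below the lowest non-targeting sgRNA in both comparisons. The call in vehicle against baseline was not stable. It was lost without vehicle 2 (FDR = 0.165), vehicle 3 (FDR = 0.143), baseline 1 (FDR = 0.116) or baseline 2 (FDR = 0.12), and when sgRNAs were scaled on the non-targeting ones (FDR = 0.0726). Without sgRNA 1, the strongest, neither call with baseline held (edgeR with rank aggregation). The values were -0.50 (FDR = 0.0724) for pralatrexate and -0.27 (FDR = 0.149) for vehicle. This alternative was chosen after seeing the data. Leaving out the strongest of 4 sgRNAs that moved the same way weakens their mean by design, so it does not test the calls.

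**Figure D1:**
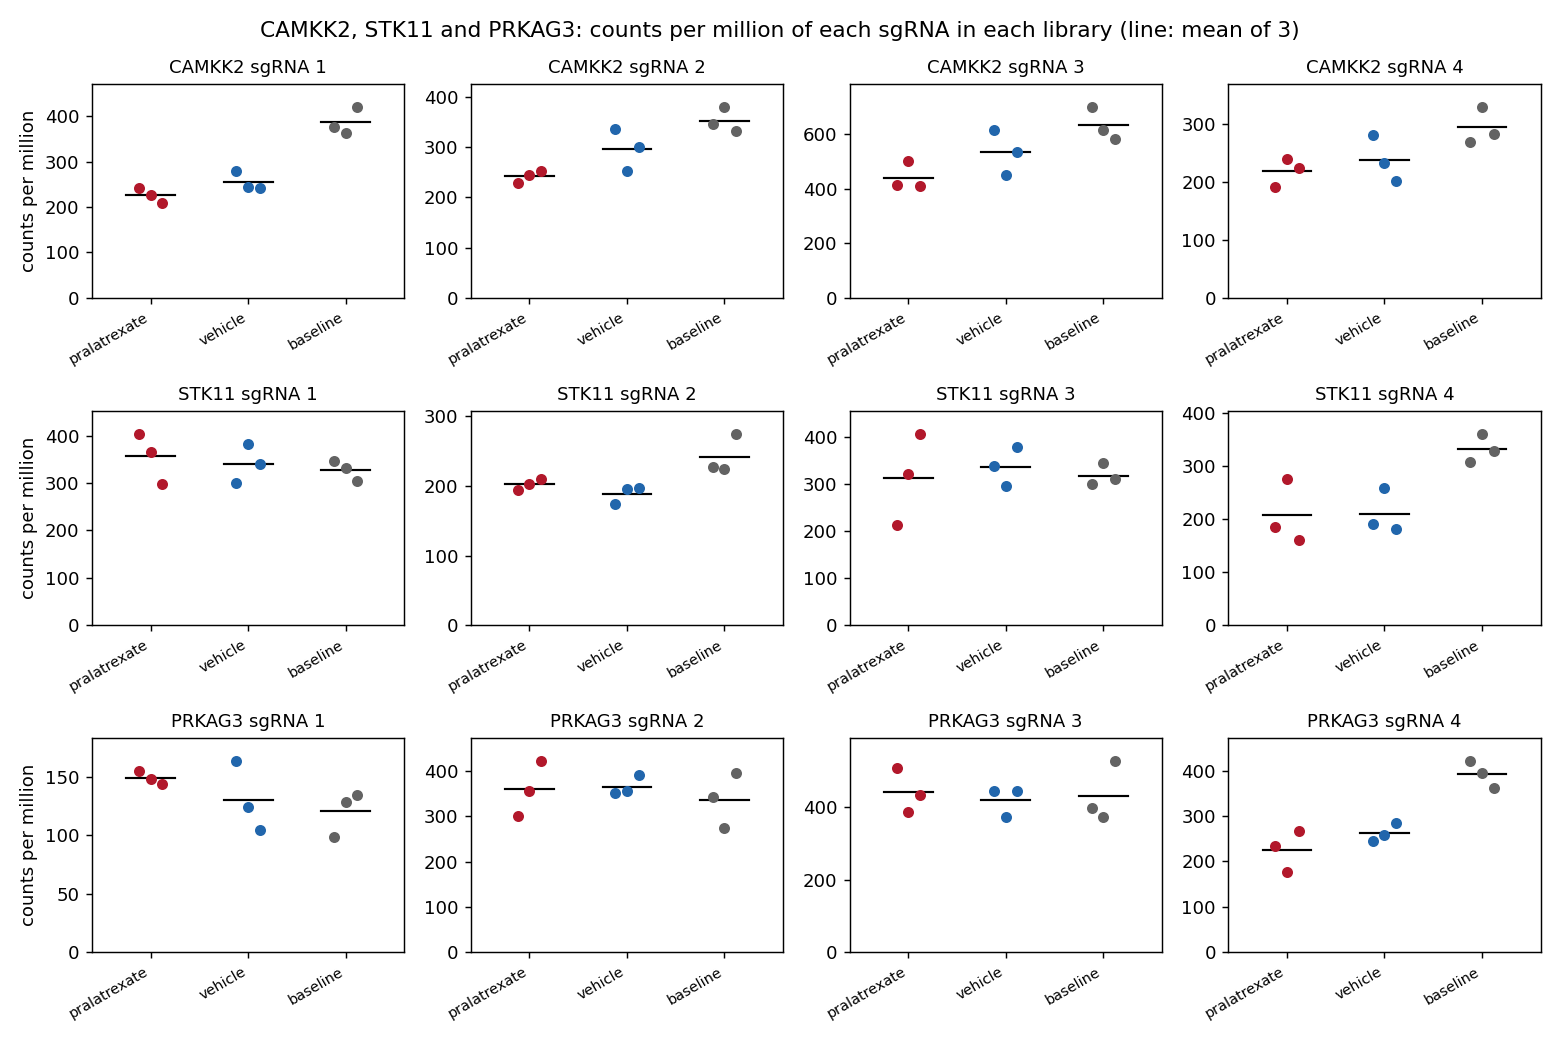
CPM (counts scaled to library size, y axis, from 0) of each of the 4 sgRNAs to CAMKK2, STK11 and PRKAG3 in the 3 pralatrexate, 3 vehicle and 3 baseline libraries (points), with the mean of each group as a line. All 4 CAMKK2 sgRNAs have their lowest mean with pralatrexate, whereas among the others STK11 sgRNAs 2 and 4 and PRKAG3 sgRNA 4 are those whose 6 day 10 libraries all lie below baseline.

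Between drug and vehicle, no member gene was called. With edgeR and rank aggregation 0 of 10 members passed the FDR threshold in either direction, where 0.655% of all genes were called as depleted and 0% as enriched. At an unadjusted p under 0.05, 1 member was depleted, CAMKK2, beside 3.93% of all genes, and 0 were enriched, beside 5.37%. No member passed with limma (0.524% of all genes lower, 0.131% higher), with DESeq2 or with edgeR on summed reads.

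CAMKK2 had a log2 fold change of -0.22 ± 0.08 in pralatrexate against vehicle (SD over 4 sgRNAs, exact rank aggregation p = 0.00762, FDR = 0.582). Its 4 sgRNAs were at -0.18, -0.29, -0.27 and -0.13, and 7% of genes with 4 tested sgRNAs had all 4 below 0. It ranked 15th from the lowest of 763 genes, and the 95% interval ran from -0.39 to -0.03. Leaving out 1 library at a time gave values from -0.28 without vehicle 2 (edgeR with rank aggregation, FDR = 0.174) to -0.11 without vehicle 1 (FDR = 0.919). CAMKK2 passed in 1 of these 6 fits, at -0.24 without vehicle 3 (FDR = 0.0456).

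**Figure D2:**
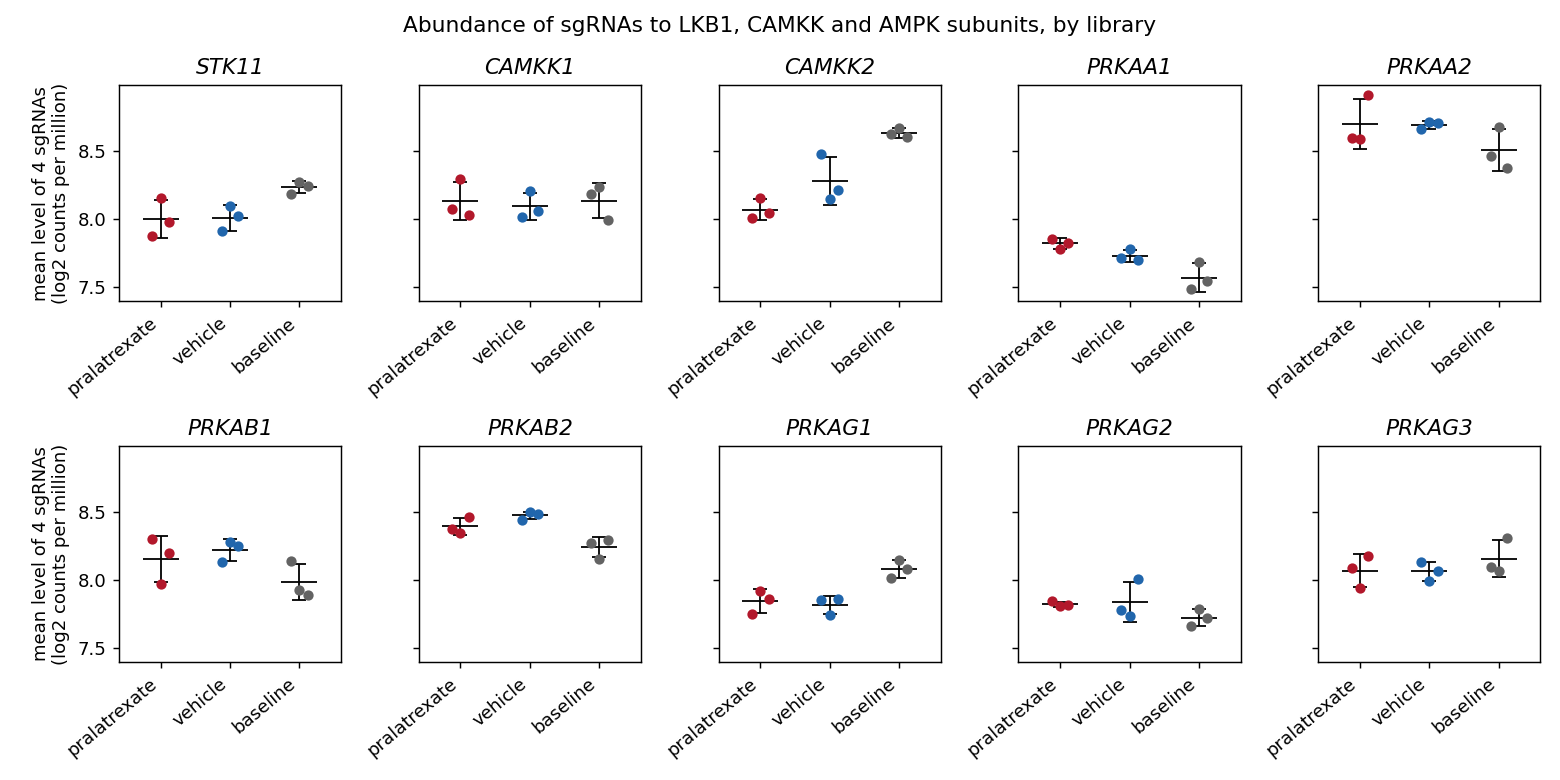
Level of each of the 10 genes (mean log2 CPM of 4 sgRNAs, y axis) in the pralatrexate, vehicle and baseline libraries, with points for libraries and a bar with whiskers for the mean and SD of 3. CAMKK2, STK11 and PRKAG1 lie below baseline in all 6 day 10 libraries, and PRKAA1 and PRKAB2 lie above it in all 6.

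STK11, which encodes LKB1, had levels of 7.88, 8.15 and 7.98 log2 CPM with pralatrexate, 7.91, 8.10 and 8.02 with vehicle, and 8.19, 8.28 and 8.25 at baseline. The pralatrexate and vehicle libraries overlapped, and both lay below baseline. The difference in level between pralatrexate and vehicle was -0.01 with a 95% interval from -0.17 to 0.16, so a fall as large as either of those of CAMKK2 against baseline lies outside it.

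STK11 was not called against baseline (log2 fold change -0.21 ± 0.36 for pralatrexate and -0.22 ± 0.36 for vehicle, SD over 4 sgRNAs, edgeR with rank aggregation, FDR = 1 for both). Its sgRNAs did not move together. sgRNA 4 had 184, 275 and 161 CPM with pralatrexate, 190, 258 and 180 CPM with vehicle, and 307, 360 and 327 CPM at baseline, and it fell by 0.69 with pralatrexate (edgeR FDR = 0.0052) and by 0.66 with vehicle (edgeR FDR = 0.00697). sgRNA 2 was at -0.26 and -0.36 and did not pass, while sgRNA 1 was at 0.12 and 0.06 and sgRNA 3 at -0.02 and 0.08. With limma on gene levels STK11 passed in both comparisons (FDR 0.0358 and 0.043), a test that does not ask whether its sgRNAs agree and by which 19.9% of all genes were lower in each comparison.

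CAMKK1, the paralogue of CAMKK2, had levels of 8.07, 8.30 and 8.04 log2 CPM with pralatrexate, 8.02, 8.21 and 8.06 with vehicle, and 8.18, 8.24 and 7.99 at baseline. The 3 groups overlapped throughout. Its log2 fold changes were 0.06 ± 0.21 in pralatrexate against vehicle, 0.01 ± 0.11 in pralatrexate against baseline and -0.04 ± 0.28 in vehicle against baseline (SD over 4 sgRNAs), and none of its sgRNAs passed in any comparison. The 95% intervals of the level differences were -0.15 to 0.23, -0.19 to 0.18 and -0.23 to 0.14. CAMKK1 and CAMKK2 were not tested against each other. Their coding sequences share 73.3% of aligned bases and no 20-base Cas9 site (20 bases followed by NGG).

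For the catalytic subunits no change was called by rank aggregation. PRKAA1 (α1) had levels of 7.86, 7.78 and 7.83 log2 CPM with pralatrexate, 7.71, 7.78 and 7.70 with vehicle, and 7.49, 7.69 and 7.54 at baseline. Its pralatrexate libraries all lay above the vehicle ones by a narrow margin, and both lay above baseline; in pralatrexate against vehicle it was the only member whose libraries did not overlap, beside 3.67% of all genes higher and 3.41% lower without overlap. The log2 fold changes were 0.09 ± 0.06, 0.24 ± 0.11 and 0.15 ± 0.09 in pralatrexate against vehicle, pralatrexate against baseline and vehicle against baseline, and none was called (edgeR with rank aggregation, FDR of 1, 0.558 and 1). By limma the second passed (level difference 0.25, 95% interval 0.10 to 0.40, FDR = 0.0125), where 9.83% of all genes were higher. Scaled on the non-targeting sgRNAs, the edgeR log2 fold change was -0.08 in that comparison, so its direction depended on the scaling. Between drug and vehicle, PRKAA1 sgRNAs 1 to 4 were at 0.09, 0.03, 0.06 and 0.18 (SE 0.23, 0.10, 0.10 and 0.33). Of these, sgRNA 4 had only 29.9 to 58.6 CPM over the 9 libraries.

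PRKAA2 (α2) had levels of 8.60, 8.59 and 8.92 log2 CPM with pralatrexate, 8.66, 8.71 and 8.71 with vehicle, and 8.47, 8.68 and 8.38 at baseline. Groups overlapped in each comparison. Its log2 fold changes were 0.01 ± 0.07, 0.18 ± 0.08 and 0.17 ± 0.07 in the same order, and the 95% interval of the drug difference in level was -0.19 to 0.21. PRKAA1 and PRKAA2 share 71.8% of aligned coding bases and 1 such 20-base site. A single knockout leaves the other α subunit in place, and no double knockout was made.

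The scaffold subunits ranked among the higher genes in vehicle against baseline (710th for PRKAB2 and 713th for PRKAB1 of 763, counted from the lowest) without being called. PRKAB2 (β2) had levels of 8.38, 8.35 and 8.46 log2 CPM with pralatrexate, 8.44, 8.50 and 8.48 with vehicle, and 8.27, 8.16 and 8.30 at baseline. All day 10 libraries lay above all baseline libraries. Its 4 sgRNAs were at 0.27, 0.23, 0.18 and 0.25 in vehicle against baseline, the tightest set among the members in that comparison (0.23 ± 0.04, edgeR with rank aggregation, FDR = 0.536). By limma it passed (level difference 0.23, 95% interval 0.09 to 0.38, FDR = 0.0151), where 9.04% of genes were higher. With pralatrexate against baseline it was at 0.15 ± 0.18, and against vehicle at -0.08 ± 0.14, neither called.

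PRKAB1 (β1) had levels of 8.30, 7.97 and 8.20 log2 CPM with pralatrexate, 8.13, 8.28 and 8.25 with vehicle, and 8.14, 7.92 and 7.89 at baseline. The groups overlapped in all 3 comparisons. Its log2 fold changes were -0.06 ± 0.18 in pralatrexate against vehicle, 0.18 ± 0.13 in pralatrexate against baseline and 0.24 ± 0.28 in vehicle against baseline. sgRNA 3 rose in vehicle against baseline (0.35, edgeR FDR = 0.0436), and sgRNA 1 was at 0.57 (edgeR FDR = 0.0597). PRKAB1 and PRKAB2 share 70% of aligned coding bases and no 20-base site.

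**Figure D3:**
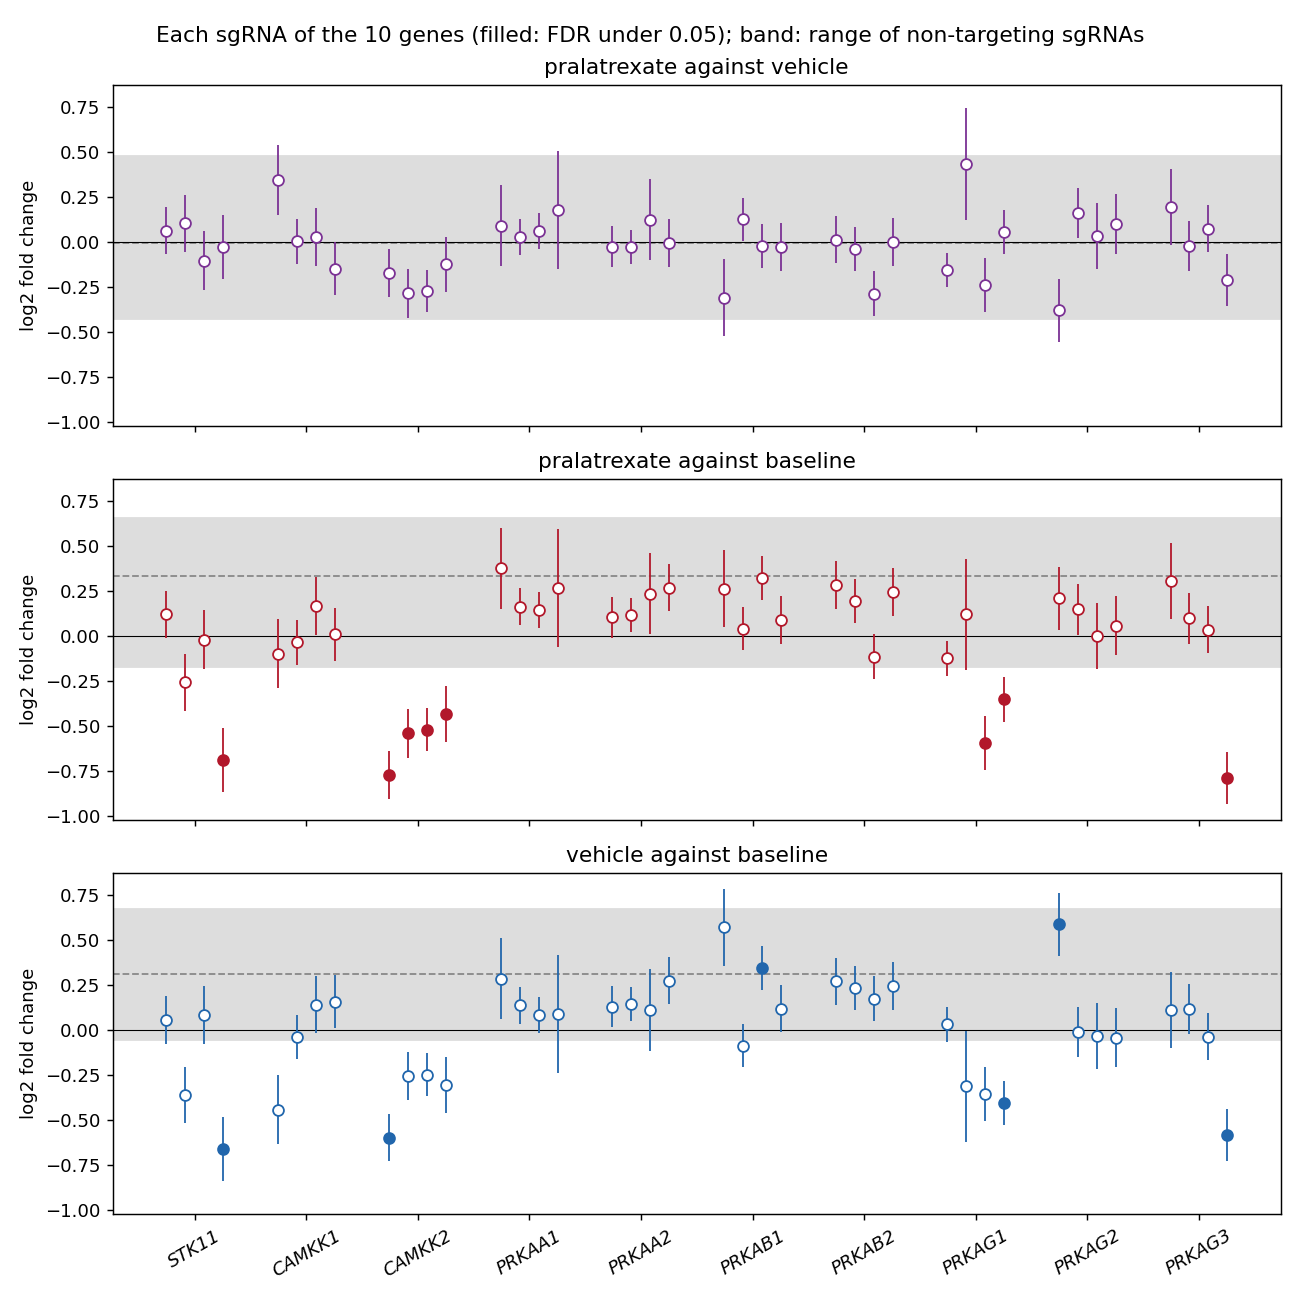
Log2 fold change (y axis) of each of the 40 sgRNAs in pralatrexate against vehicle, pralatrexate against baseline and vehicle against baseline, with whiskers for the standard error from edgeR and filled points for an FDR under 0.05. The grey band is the range of the 99 non-targeting sgRNAs and the dashed line their median, which lies at 0.34 and 0.31 in the comparisons with baseline; no member sgRNA leaves the band between drug and vehicle.

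Among the γ subunits, PRKAG1 (γ1), the widely expressed form, had the lowest log2 fold changes against baseline. Its levels were 7.75, 7.92 and 7.86 log2 CPM with pralatrexate, 7.85, 7.74 and 7.86 with vehicle, and 8.01, 8.15 and 8.08 at baseline. All day 10 libraries lay below all baseline libraries. It was not called by rank aggregation (log2 fold change -0.24 ± 0.31 with pralatrexate and -0.26 ± 0.20 with vehicle against baseline, edgeR with rank aggregation, FDR of 0.657 and 0.82). By limma it passed in both comparisons (FDR 0.0207 and 0.0107), where 19.9% of all genes were lower in each.

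The PRKAG1 sgRNAs split. sgRNA 4 had 373, 404 and 324 CPM with pralatrexate, 362, 303 and 395 CPM with vehicle, and 495, 459 and 451 CPM at baseline, and it fell by 0.35 with pralatrexate (edgeR FDR = 0.0432) and by 0.41 with vehicle (edgeR FDR = 0.0183). sgRNA 3 fell by 0.60 with pralatrexate (edgeR FDR = 0.00433) and was at -0.36 with vehicle (edgeR FDR = 0.0947). sgRNA 1, the most abundant at 595 to 782 CPM over the 9 libraries, was at -0.12 and 0.03. sgRNA 2 had only 33.0 to 60.6 CPM and an SE of 0.31 in each comparison, so a change of its size could not be resolved at this depth. In pralatrexate against vehicle PRKAG1 was at 0.02 ± 0.30, with a 95% interval of the level difference from -0.12 to 0.18.

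PRKAG2 (γ2), known for mutations in a cardiac glycogen storage disease, had levels of 7.85, 7.81 and 7.82 log2 CPM with pralatrexate, 7.78, 7.74 and 8.01 with vehicle, and 7.67, 7.79 and 7.72 at baseline. The pralatrexate libraries lay just above the baseline ones, and the vehicle libraries overlapped both. Its log2 fold changes were -0.02 ± 0.24 in pralatrexate against vehicle, 0.10 ± 0.09 in pralatrexate against baseline and 0.13 ± 0.31 in vehicle against baseline. The last value rested on sgRNA 1, which rose by 0.59 (edgeR FDR = 0.0169) with 242, 241 and 391 CPM in the vehicle libraries, against 191, 223 and 168 CPM in the baseline libraries. Its highest value came from vehicle 3 alone, and the other 3 sgRNAs were between -0.04 and -0.01.

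PRKAG3 (γ3), the form known from skeletal muscle, had levels of 8.09, 7.94 and 8.18 log2 CPM with pralatrexate, 8.14, 7.996 and 8.07 with vehicle, and 8.10, 8.07 and 8.31 at baseline. The groups overlapped in every comparison. A single sgRNA stood apart: sgRNA 4 had 234, 178 and 267 CPM with pralatrexate, 245, 258 and 285 CPM with vehicle, and 421, 394 and 362 CPM at baseline. It fell by 0.79 with pralatrexate (edgeR FDR = 0.000118) and by 0.58 with vehicle (edgeR FDR = 0.00371), the lowest sgRNA of all 40 in pralatrexate against baseline. The other 3 were at 0.31, 0.10 and 0.04 with pralatrexate and 0.11, 0.12 and -0.04 with vehicle, and the gene was at -0.09 ± 0.48 and -0.10 ± 0.33, not called. PRKAG1 shares 71.3% of aligned coding bases with PRKAG2 and 68% with PRKAG3, PRKAG2 shares 62.7% with PRKAG3, and no pair shares a 20-base site.

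Over the 40 sgRNAs, 8 fell and 0 rose in pralatrexate against baseline, where 13.1% of all sgRNAs fell and 5.98% rose by edgeR. In vehicle against baseline 4 fell and 2 rose, where 12.8% fell and 6.26% rose. In pralatrexate against vehicle 0 passed in either direction by edgeR and by DESeq2, beside 0.0318% of all sgRNAs lower and 0% higher by edgeR, and 4 were lower and 0 higher at an unadjusted p under 0.05, beside 2.99% and 2.61% of all sgRNAs. The split depended on the scaling: on the non-targeting sgRNAs, 12 fell and 0 rose in pralatrexate against baseline, beside 42.9% lower and 0.254% higher of all sgRNAs. On that scaling 16 fell and 0 rose in vehicle against baseline, beside 45.2% lower and 0.35% higher of all sgRNAs. With that scaling the gene log2 fold changes of PRKAA1, PRKAA2, PRKAB1, PRKAB2 and PRKAG2, above 0 in both comparisons with baseline, were below 0 in both.

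Against the non-targeting sgRNAs the 40 sgRNAs sat within the run of the library. In pralatrexate against baseline 9 of 40 (22.5%) lay below the lowest non-targeting sgRNA, where 27.7% of targeting sgRNAs did, and in vehicle against baseline 12 of 40 (30%) did, where 40.7% of targeting sgRNAs did. Between drug and vehicle 0 of 40 did, beside 1.48%. The median log2 fold change over the 10 genes was 0.01, 0.06 and 0.04 in pralatrexate against vehicle, pralatrexate against baseline and vehicle against baseline, beside 0.01, 0.01 and 0.02 over all 763 genes. In pralatrexate against baseline 3 members (STK11, CAMKK2 and PRKAG1) were lower and 3 (PRKAA1, PRKAB2 and PRKAG2) higher with no overlap between libraries, where 25.6% and 20.3% of all genes were. In vehicle against baseline 3 were lower (STK11, CAMKK2 and PRKAG1) and 2 higher (PRKAA1 and PRKAB2), where 24.5% and 19.5% of all genes were.

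**Figure D4:**
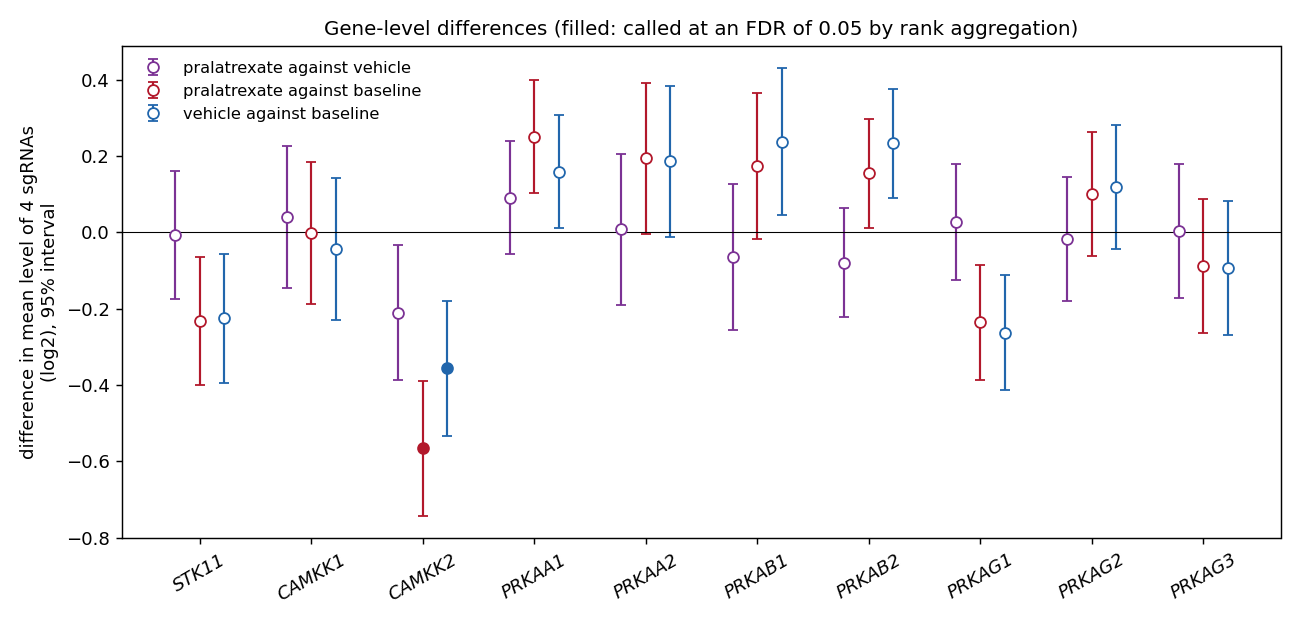
Difference in level (log2, y axis) of each gene in pralatrexate against vehicle, pralatrexate against baseline and vehicle against baseline, with 95% intervals from limma over 3 libraries a group and filled points for genes called by rank aggregation. CAMKK2 is the gene with filled points, in both comparisons with baseline, and its interval against vehicle ends at -0.03.

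The other genes of the pathway were described from lists of the library's kinases. Of the LKB1 partners (2 genes), the AMPK-related kinases that LKB1 also activates (12 genes), the calcium and calmodulin arm (6 genes) and the TAK1 arm (2 genes), 0 were called in any comparison by edgeR with rank aggregation. At an unadjusted p under 0.05, 1 AMPK-related kinase was enriched in pralatrexate against vehicle (5.37% of all genes), 2 AMPK-related kinases and 1 gene of the calcium arm in pralatrexate against baseline (9.04% of all genes), and 1 LKB1 partner in vehicle against baseline (7.86% of all genes). In each comparison with baseline limma called 6 genes over these and the downstream list, 4 lower and 2 higher, and 1 of them passed by rank aggregation; of all genes limma called 19.9% lower in each, and 9.83% higher with pralatrexate and 9.04% higher with vehicle. Of the 9 genes downstream of AMPK, limma called 3 lower with pralatrexate and 4 lower with vehicle, each against baseline. In each of these comparisons 9 of their 36 sgRNAs fell by edgeR, beside 13.1% and 12.8% of all sgRNAs. At an unadjusted p under 0.05, rank aggregation had 2 and 3 of the 9 depleted and 0 in the other lists. Of all 763 genes it had 113 and 115 depleted. At the FDR threshold 1 of the 9 was called as depleted in each, beside 7.34% and 7.47% of all genes. This was MTOR, the kinase of mTORC1, with a log2 fold change of -2.14 ± 1.64 in pralatrexate against baseline (edgeR with rank aggregation, FDR = 0.00382), -2.07 ± 1.33 in vehicle against baseline (FDR = 0.00221) and -0.07 ± 0.33 in pralatrexate against vehicle (FDR = 1).

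In vehicle against baseline the median log2 fold change was 0.10 for the LKB1 partners, 0.07 for the AMPK-related kinases, 0.11 for the calcium arm, 0.02 for the TAK1 arm and -0.18 for the downstream genes, beside 0.02 over all genes. STRADB and STRADA, pseudokinases that bind LKB1, were at -0.04 ± 0.21 and 0.24 ± 0.11. MARK2 and MARK1, microtubule-affinity regulating kinases, were at -0.18 ± 0.29 and 0.21 ± 0.10. CAMK1G and CAMK1D, calmodulin-dependent kinases, were at -0.18 ± 0.19 and 0.14 ± 0.11. MAP3K7, which encodes TAK1, and its binding partner TAB1 were at -0.08 ± 0.14 and 0.12 ± 0.13, and PFKFB2, a glycolytic regulator, was the highest downstream gene at 0.13 ± 0.07. None of these passed by rank aggregation. By limma STRADA and MARK1 passed as higher (FDR 0.0393 and 0.0337), where 9.04% of all genes were. LAMTOR3, part of the lysosomal anchor of mTORC1, was at -0.75 ± 0.58 (edgeR with rank aggregation, FDR = 0.099). PFKFB3, of the downstream list, was at -0.43 ± 0.28 (edgeR with rank aggregation, FDR = 0.289). By limma both passed as lower (FDR 2.59e-06 and 0.000783), where 19.9% of all genes were. LAMTOR3 and PFKFB3 were singled out after their values were seen.

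The 3 genes whose levels relative to the non-targeting median ran most like STK11 over the 9 libraries were HK1 (Pearson r = 0.984), MAP4K1 (r = 0.984) and KSR2 (r = 0.984). All points share the shift of the non-targeting sgRNAs between baseline and day 10, and 262 of the 753 genes compared had an r over 0.9, so this likeness is not particular to these genes.

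On GRCh38, CAMKK2 spans chr12:121237675-121298308 on the minus strand, and PRKAB1 spans chr12:119667864-119681624 on the plus strand, 1.56 Mb away. STK11 spans chr19:1177558-1228431 (plus strand) and PRKAG1 chr12:49002274-49018807 (minus strand). Of the 6 library genes within 10 Mb of CAMKK2, 0 were called as depleted against baseline in either comparison. Of all genes, 7.34% were called as depleted with pralatrexate and 7.47% with vehicle. The log2 fold changes of these 6 in pralatrexate against baseline ran from -0.54 (MAPKAPK5, 9.34 Mb away) to 0.18 (PRKAB1). In vehicle against baseline they ran from -0.40 (MAPKAPK5, below CAMKK2 at -0.35) to 0.24 (PRKAB1). The nearest, CIT, was at 0.02 with pralatrexate and 0.15 with vehicle. These neighbours were looked up after the values of CAMKK2 were seen, and the positions are those of genes, since guide sequences were not used here.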

How the data were processed

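The deposited table held raw counts, that is reads per sgRNA that the authors did not normalize, and the submitters' processing notes name Bowtie 1.0.0. The counting program and the genome build are not named there. Gene tables with the authors' own fold changes and p-values were not used. sgRNAs with a mean under 30 reads were removed (7 of 3152). The remaining 3145 (99 non-targeting) were fitted in R 4.3.3 with edgeR 4.0.16 (quasi-likelihood, TMM, group only, 9 libraries). The study ranked genes with MAGeCK. The same rank aggregation was run on one-sided edgeR p-values, counting sgRNAs with p under 0.25 and taking each p from the exact distribution over sgRNA sets, with Benjamini-Hochberg adjustment over 763 genes. Levels are mean log2 CPM (prior count 0.5), with intervals from limma 3.58.1. DESeq2 1.42.0 was an alternative. sgRNAs are numbered in the order of the deposited table. Gene spans and coding sequences came from GENCODE 44 on GRCh38 (alignment with Biopython 1.88).

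Same-numbered pralatrexate and vehicle libraries deviated together (r = 0.197, 0.212 and 0.173 across sgRNAs), so these numbers pair them. The pairing rests on the data, and the main fits and intervals did not use it. The steps were also run on simulated counts, for vehicle against baseline only and without pairing. The outcome is not given here, and no result above rests on it. The 10 genes, the pathway lists, the tests and the rule for named genes (members, called list genes, each list's lowest and highest gene, and the 3 most like STK11) were chosen with earlier results of these data known.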

Additional observations from a re-analysis of the deposited data

How the results depend on the processing

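In pralatrexate against vehicle, leaving out 1 library at a time gave 0 to 1 member genes, 2 to 7 genes in all (5 with all libraries) and 1 to 3 sgRNAs in all (1 with all libraries), and DESeq2 called 13 sgRNAs. In vehicle against baseline, member genes called (1) became 0 to 1 without 1 library, 0 on non-targeting scaling, 4 by limma and 4 on summed reads. The number became 0 without each member's strongest sgRNA, an alternative chosen after seeing the data that weakens the CAMKK2 mean by design. Non-targeting scaling called 16 member sgRNAs and 1432 in all (1421 lower, 11 higher). limma and summed reads called 6 and 8 pathway list genes and 221 and 288 genes in all, against 61. In pralatrexate against baseline, member genes called (1) became 4 by limma, 3 on summed reads and 0 without the strongest sgRNA, pathway list genes 6 and 9, and all genes 227 and 295, against 58, and non-targeting scaling called 1358 sgRNAs (1350 lower, 8 higher). The causes were not tested.

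With the replicate number as a block, 4 sgRNAs were called in all in pralatrexate against vehicle. CAMKK2 was at -0.21 in that comparison (edgeR with rank aggregation, FDR = 0.532). Its call in vehicle against baseline was lost (edgeR with rank aggregation, FDR = 0.0623), which left 0 member genes there. The block covered the baseline libraries too. Same-numbered baseline and vehicle libraries had r = 0.0935, 0.00923 and 0.0807, beside -0.111 to 0.0323 for those of different numbers. Same-numbered baseline and pralatrexate libraries had r = 0.0292, -0.0461 and -0.0208, beside -0.0578 to 0.0766 for those of different numbers. These values do not settle whether the baseline libraries are paired with the others. The block changed no other member gene call. With 3 libraries a group and a variation of 13.2% per sgRNA beyond counting noise, small changes of single genes were not resolved. Those of sgRNAs of low abundance, such as PRKAA1 sgRNA 4 and PRKAG1 sgRNA 2, were resolved least of all.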
